A study of Mus musculus with 12 samples.

Results

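The genes described here are the 8 immediate neighbours of Htra2 on mouse chromosome 6: Dok1, Loxl3, Aup1, Pcgf1, Mogs, Wbp1, Ino80b and Rtkn. They were chosen by name, and every probe set to which the platform annotation gives exactly 1 symbol from this list was taken. That gave 8 probe sets, 1 for each gene, out of 12393 genes measured, so no member has a second probe set to check it. In the RefSeq gene order, which served here for neighbourhood only, Loxl3 lies next to Htra2 on one side with Dok1 beyond it. Aup1 lies next to Htra2 on the other side, followed by Pcgf1, Mogs, Wbp1, Ino80b and Rtkn, with Dqx1, Tlx2, Lbx2, Ccdc142 and Mrpl53 lying among them. The annotated intervals of Loxl3 and Aup1 each overlap that of Htra2, and no other member's does.

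The arrays compare mouse embryonic fibroblasts (MEFs, primary cells grown from embryos) of wild-type mice and of HtrA2 knockout mice, each given vehicle or rotenone, an inhibitor of mitochondrial complex I. The 12 arrays form 4 groups of 3, numbered 1 to 3 in each: wild type with vehicle, wild type with 1 µM rotenone, knockout with vehicle and knockout with 1 µM rotenone, all exposed for 4 h at passage 4. For the 3 arrays of wild type with rotenone, 1 label field names the knockout and the title, source and description name the wild type; they are treated as wild type throughout. The strain, the vehicle and which bases of Htra2 the knockout lacks are not stated in the labels. The labels do not say whether the arrays of a group came from separate embryos or cultures, so the p-values cover the spread among these arrays alone, and part or all of it may be technical.

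HtrA2 is a protease that sits between the membranes of the mitochondrion. Its neighbours are not a gene family; what they share with Htra2 is their place, and genes that lie next to each other are inherited together. The 8 proteins work outside the cell and at its membrane (LOXL3, DOK1), at the endoplasmic reticulum (AUP1, MOGS), on chromatin (PCGF1, INO80B), and in signalling and protein binding in the cytoplasm (RTKN, WBP1).

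Values are log2 levels per probe set, on which a difference of 1 is a doubling, and levels of different probe sets are not compared with each other. Each comparison was tested with limma in 1 fit of the 4 group means, with adjusted p-values (Benjamini-Hochberg) over all 22626 probe sets and a threshold of 0.05. A second fit added the replicate number as a block, since same-numbered arrays deviated from their group means together, and it is quoted where it changes a call. Array medians ran from 7.53 to 7.58. Htra2 itself, read from the brighter of its 2 probe sets, stood at 8.83 to 9.32 on the 6 wild-type arrays, where the 3 with conflicting labels had 9.02 to 9.14, and at 7.57 to 7.87 on the 6 knockout arrays. It was lower in the knockout by 1.35 on the log2 scale (SE 0.09, limma adjusted p = 9.03e-05); the dimmer probe set did not pass, at 0.32 higher (limma adjusted p = 0.809). Both Htra2 probe sets carry a suffix (_s_at) that marks probes shared with other transcripts, which are not named in the annotation used here. All 11 fibroblast markers looked at were above the 40th percentile of probe sets, as were 5 of 10 measured leukocyte markers, and none of either list passed for genotype or rotenone; Pdgfra, a fibroblast marker, fell with rotenone only with the block (-0.62, limma adjusted p = 0.0315).

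Loxl3 (probe set 1418269_at) was lower in knockout than in wild-type fibroblasts under both treatments. LOXL3 belongs to the lysyl oxidases, secreted copper enzymes that oxidise lysines of collagen and elastin so that the fibres can be crosslinked. Its level was 10.99, 11.02 and 11.10 on the wild-type vehicle arrays 1 to 3, and 10.76, 10.61 and 11.24 on the wild-type rotenone arrays. It was 10.14, 9.95 and 9.96 on the knockout vehicle arrays, and 9.69, 9.85 and 9.98 on the knockout rotenone arrays. The lowest wild-type array, 10.61, thus lay above the highest knockout array, 10.14, whereas vehicle and rotenone overlapped within the wild type and within the knockout.

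Averaged over the treatments, Loxl3 was lower in the knockout by 1.02 on the log2 scale (SE 0.10, 95% interval of the difference -1.25 to -0.80, limma adjusted p = 0.00422). This is a 2.03-fold difference (interval 1.74 to 2.37), present in 6 of 6 same-numbered pairs. Loxl3 was 1 of 2 probe sets called in this comparison, 0.00884% of those tested, the other being Htra2, and the only member. With the block 125 probe sets were called, 0.552%, and Loxl3 was still the only member among them (limma adjusted p = 7.78e-05). The 6 knockout arrays lay wholly below the 6 wild-type arrays for Loxl3 alone among the members, and for 0.248% of all probe sets.

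The difference in Loxl3 was of like size under each treatment. With vehicle it was -1.02 (SE 0.14, interval -1.33 to -0.70), and the same-numbered pairs differed by -0.85, -1.07 and -1.13. With rotenone it was -1.03 (SE 0.14, interval -1.35 to -0.72), and the pairs differed by -1.08, -0.76 and -1.26. Neither passed without the block (limma adjusted p = 0.16 and 0.141), where 0.00442% of probe sets were called in each comparison. Both passed with it (0.00711 and 0.00606), where 0.0177% and 0.0398% were called. The blocked call of Loxl3 was lost in vehicle without the wild-type vehicle array 1 or 2 or the knockout vehicle array 2 (limma adjusted p = 0.136, 0.259 and 0.113), and in rotenone without the knockout rotenone array 1 (0.141). The call over both treatments was lost when all arrays numbered 1 were left out (-1.05, limma adjusted p = 1) or all numbered 2 (-1.08, adjusted p = 0.589).

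Rotenone left Loxl3 lower by 0.17 (SE 0.10, interval -0.40 to 0.05, limma adjusted p = 0.745), a difference that did not pass. In the order of its group means, 11.04 ± 0.05 in wild type with vehicle, 10.87 ± 0.33 in wild type with rotenone, 10.02 ± 0.10 in knockout with vehicle and 9.84 ± 0.15 in knockout with rotenone (SD, n = 3 each), the step from the second to the third group exceeds the spread. The steps within a genotype do not pass the test. Of the other lysyl oxidases, 3 were measured and 0 passed for genotype in either fit: Lox differed by -0.05, Loxl1 by -0.05 and Loxl4 by -0.07 (limma adjusted p = 0.903, 0.912 and 0.876).

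The genes whose profile over the 12 arrays was nearest to that of Loxl3, by the root mean square difference after centring each gene, were Htra2 (0.27), Hoxa9 (0.29) and Lancl2 (0.30), against a root mean square of 0.54 for the profile of Loxl3 itself. They were picked for nearness to a profile that is lower in the knockout, so their lower knockout values follow from that choice. All of them also lie on chromosome 6. The share of measured genes on that chromosome was not counted, and a link to place was not tested. Hoxa9, a homeobox transcription factor, had a genotype difference of -0.68, past the threshold only with the block (limma adjusted p = 0.519 without, 0.00194 with). Lancl2, a lanthionine synthetase-like protein, had a difference of -0.65 (limma adjusted p = 0.213 without the block, 0.00106 with).

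**Figure D1:**
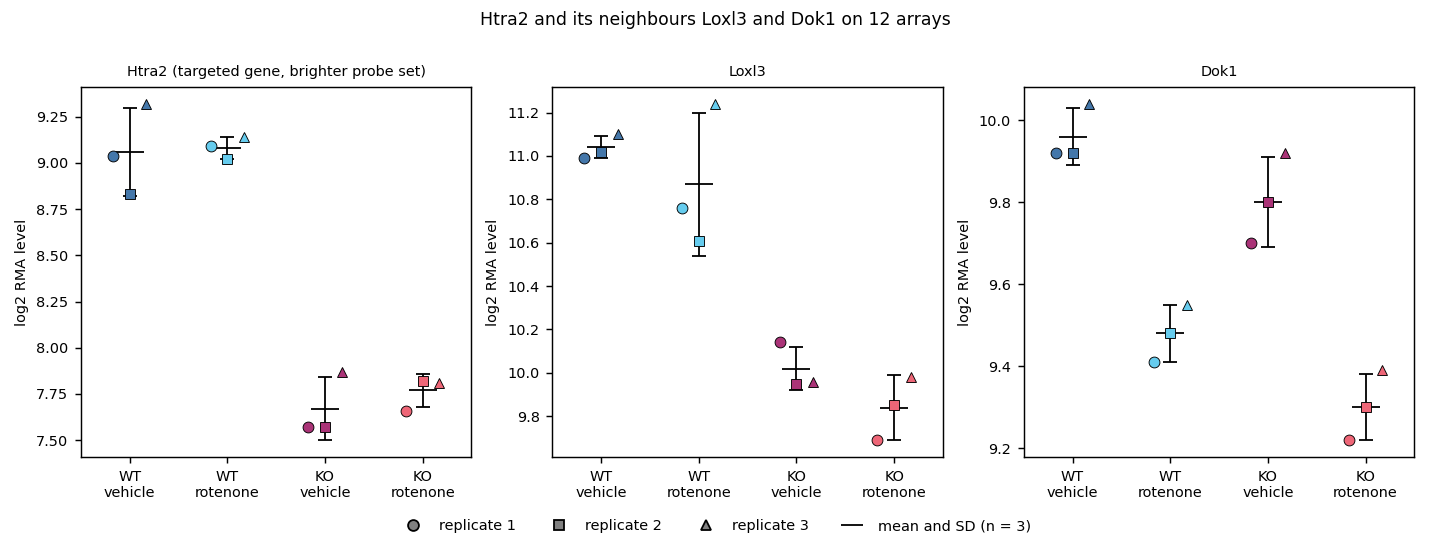
Levels of Htra2 (brighter probe set), Loxl3 and Dok1 on each of the 12 arrays (log2, vertical axis) in the 4 groups (horizontal axis), with array numbers marked and bars at the group mean with SD. Loxl3, like Htra2, separates the knockout arrays, at most 10.14, from the wild-type arrays, at least 10.61, and Dok1 separates the rotenone arrays, at most 9.55, from the vehicle arrays, at least 9.70.

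Dok1 (probe set 1417790_at), on the far side of Loxl3 from Htra2, fell with rotenone in both genotypes. DOK1 is a docking protein that is phosphorylated by tyrosine kinases and restrains Ras and MAP kinase signalling; it is best known from blood cells. Its level was 9.92, 9.92 and 10.04 on the wild-type vehicle arrays 1 to 3 and 9.41, 9.48 and 9.55 on the wild-type rotenone arrays. It was 9.70, 9.80 and 9.92 on the knockout vehicle arrays and 9.22, 9.30 and 9.39 on the knockout rotenone arrays. Every rotenone array, 9.55 at most, was below every vehicle array, 9.70 at least. Since these are RNAs from whole cultures, fewer cells of a type and less RNA per cell cannot be told apart.

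Averaged over the genotypes, rotenone lowered Dok1 by 0.49 on the log2 scale (SE 0.06, interval of the difference -0.63 to -0.35, limma adjusted p = 0.014), a 1.41-fold fall (interval 1.28 to 1.55). It was the only member called, where 0.217% of all probe sets were (2.46% with the block), and the only member whose vehicle and rotenone arrays did not overlap, as 0.446% of probe sets did in the downward direction. The 3 same-numbered pairs fell by 0.51, 0.43 and 0.50 in the wild type and by 0.48, 0.50 and 0.53 in the knockout. Within a genotype the fall, -0.48 (SE 0.09) in wild type and -0.50 (SE 0.09) in knockout, passed only with the block (limma adjusted p = 0.255 and 0.311 without, 0.0159 and 0.0149 with). In those comparisons 0.0133% and 0.00884% of probe sets were called without the block, and 0.628% and 0.301% with it. The blocked call was lost in wild type without any 1 of its vehicle arrays or its rotenone array 1 or 2 (limma adjusted p from 0.0556 to 0.133), and in knockout likewise (0.0774 to 0.14). The mean fall of Dok1 no longer passed without the wild-type vehicle array 1 (-0.50, limma adjusted p = 0.0517), without the knockout rotenone array 1 (-0.47, adjusted p = 0.0733), or without all arrays numbered 1 (adjusted p = 1) or 2 (adjusted p = 0.641).

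Dok1 was also a little lower in the knockout, by 0.17 (SE 0.06, interval -0.31 to -0.03), in 6 of 6 same-numbered pairs, with differences from -0.23 to -0.12. That difference had an unadjusted p of 0.0222 and did not pass (limma adjusted p = 0.809). With rotenone the knockout arrays, 9.39 at most, lay below the wild-type arrays, 9.41 at least. With vehicle the groups met at 9.92. How many of all probe sets separate 3 against 3 arrays in this way, or have 6 of 6 pairs of 1 sign, was not counted. The group means ran 9.96 ± 0.07 in wild type with vehicle, 9.80 ± 0.11 in knockout with vehicle, 9.48 ± 0.07 in wild type with rotenone and 9.30 ± 0.08 in knockout with rotenone (SD, n = 3).

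Of the other DOK family genes 4 were measured, and 0 passed for rotenone or genotype in either fit. Dok4, an adaptor of receptor tyrosine kinases, differed by -0.17 with rotenone (limma adjusted p = 0.54), Dok3 by -0.07, Dok2 by 0.02 and Dok5 by 0.21. The summed level of the 10 leukocyte markers, given because Dok1 is known from blood cells, had a log2 range of 10.33 to 10.98 and 10.44 to 11.11 in the wild-type and knockout vehicle groups. It was 10.44 to 11.05 and 10.54 to 11.10 in the rotenone groups, where Dok1 was lower. None of those markers passed for rotenone.

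The profiles nearest to that of Dok1 over the 12 arrays belonged to Jun, an AP-1 transcription factor (root mean square difference 0.11), Arrdc4, an arrestin-domain protein (0.12), and Arfgap1, a GTPase-activating protein of Arf (0.13), against 0.27 for the Dok1 profile itself. Jun fell with rotenone by 0.64 (limma adjusted p = 0.0115) and Arrdc4 fell by 0.57 (adjusted p = 0.018). Arfgap1 fell by 0.39, past the threshold only with the block (limma adjusted p = 0.0518 without, 0.00537 with). These genes were picked for nearness to Dok1, so their falls follow from that choice. None of these is on chromosome 6.

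Aup1 (probe set 1415742_at), which adjoins Htra2 on the side away from Loxl3, did not pass for either comparison. AUP1 sits on lipid droplets and the endoplasmic reticulum, where it recruits the ubiquitin-conjugating enzyme UBE2G2 to the degradation of misfolded proteins. Its level was 9.37, 9.12 and 9.16 with vehicle and 9.24, 9.37 and 8.96 with rotenone in the wild type. In the knockout it was 9.07, 9.00 and 9.07 with vehicle and 9.02, 9.31 and 9.13 with rotenone. The knockout vehicle arrays, 9.07 at most, lay below the wild-type vehicle arrays, 9.12 at least, and every other pair of groups overlapped. The share of all probe sets that separate these vehicle groups in this way was not counted. With vehicle the genotype difference of Aup1 was -0.17 (SE 0.12, limma unadjusted p = 0.176) and did not pass.

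Aup1 differed by -0.10 for genotype (SE 0.08, interval -0.29 to 0.08, limma adjusted p = 0.838) and by 0.04 for rotenone (SE 0.08, interval -0.14 to 0.22, adjusted p = 0.949). The genotype interval does not reach the 1.02 by which Loxl3 differed, and whether Aup1 and Loxl3 depart from each other was not tested. Among 9 measured genes of endoplasmic reticulum degradation other than Aup1, 0 passed for genotype in either fit, their median difference being -0.03 where that of all probe sets was 0.01. For rotenone 0 of the 9 passed without the block. With it Syvn1, the ubiquitin ligase of this pathway, fell by 0.45 (limma adjusted p = 0.0554 without, 0.00408 with), where 2.46% of all probe sets were called. Ube2g2 differed by -0.07 with rotenone and by -0.03 for genotype, and Sel1l, the partner of Syvn1, by 0.05 and -0.05.

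Pcgf1 (probe set 1427956_at) did not pass for genotype or rotenone either, and its probe set was dim, at the 35.2 percentile of all probe sets. PCGF1 is the Polycomb-group RING finger protein of a variant Polycomb repressive complex 1, which contains BCOR and KDM2B and ubiquitinates histone H2A. Its level was 6.97, 6.69 and 6.58 with vehicle and 7.32, 7.24 and 6.50 with rotenone in the wild type. In the knockout it was 6.61, 6.65 and 6.59 with vehicle and 6.85, 6.68 and 6.49 with rotenone. Wild-type rotenone arrays 1 and 2 stood above all other arrays, and array 3 of that group was the lowest but one of the 12.

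Pcgf1 differed by -0.24 for genotype (SE 0.13, interval -0.53 to 0.06, limma adjusted p = 0.817) and by 0.17 for rotenone (SE 0.13, interval -0.13 to 0.46, adjusted p = 0.83). The same-numbered genotype pairs were -0.36, -0.04 and 0.01 with vehicle and -0.47, -0.56 and -0.01 with rotenone, so that the pairs numbered 3 hardly differed. With the block and without the wild-type rotenone array 3, the genotype difference of Pcgf1 passed (limma adjusted p = 0.0305). It also passed with the block and without all arrays numbered 3 (limma adjusted p = 0.0145). In the other 11 of 12 blocked refits that left out 1 array it failed, as in all 12 without the block. The shares of all probe sets called in these refits are not given here. Of 8 other measured genes of variant Polycomb complexes 0 passed for genotype or rotenone in either fit. Rnf2, a catalytic subunit, differed by -0.14 for genotype and 0.23 for rotenone, Ring1, its paralogue, by 0.05 and -0.02, and Kdm2b by -0.03 and -0.02; Bcor was not measured.

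Mogs, Wbp1, Ino80b and Rtkn follow one another on the chromosome, and RefSeq promoter windows were matched for these 4 members of the 8. The 250 bases before the start of Mogs, Wbp1 and Ino80b are printed to show what lies upstream of these neighbouring starts, 5′ to 3′ along the gene, with motif matches in capitals. The motifs searched on both strands were the GC box (GGGCGG or CCGCCC), the CCAAT box (CCAAT or ATTGG), an ETS core (CGGAAG or CTTCCG) and the TATA box (TATAAA or TTTATA), and no matches overlapped. The windows, of assembly GRCm38.p6, are chr6:83115256-83115505 on the plus strand for Mogs, chr6:83121462-83121711 on the minus strand for Wbp1 and chr6:83125120-83125369 on the minus strand for Ino80b.
Mogs: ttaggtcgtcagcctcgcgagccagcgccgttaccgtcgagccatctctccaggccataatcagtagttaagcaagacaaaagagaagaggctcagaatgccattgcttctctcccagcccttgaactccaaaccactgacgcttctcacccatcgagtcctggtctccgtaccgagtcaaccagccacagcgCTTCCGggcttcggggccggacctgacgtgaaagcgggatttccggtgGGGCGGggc
Wbp1: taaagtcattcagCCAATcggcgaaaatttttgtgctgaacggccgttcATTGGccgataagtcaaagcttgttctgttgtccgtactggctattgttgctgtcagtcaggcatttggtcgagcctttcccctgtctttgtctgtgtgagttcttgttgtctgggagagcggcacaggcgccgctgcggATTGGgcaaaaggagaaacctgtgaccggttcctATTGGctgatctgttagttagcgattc
Ino80b: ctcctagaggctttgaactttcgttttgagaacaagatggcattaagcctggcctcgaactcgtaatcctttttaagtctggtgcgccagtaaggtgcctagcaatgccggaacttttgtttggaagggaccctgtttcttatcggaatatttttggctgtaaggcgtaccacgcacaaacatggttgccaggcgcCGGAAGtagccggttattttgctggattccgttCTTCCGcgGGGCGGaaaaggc

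The window of Mogs holds 1 GC box and 1 ETS core, that of Wbp1 holds 4 CCAAT boxes, and that of Ino80b holds 1 GC box and 2 ETS cores. Of all 32851 windows of this length, 32.7% hold a GC box, 33.8% a CCAAT box, 13.6% an ETS core and 12.4% a TATA box. No TATA box was found in these windows or in the 3 of Rtkn. The windows hold 19 CpG dinucleotides for Mogs, 13 for Wbp1 and 15 for Ino80b, where the median over all windows is 6. The 3 windows of Rtkn hold 10, 6 and 2. These are matches of letters in a window and describe the sequence only.

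Mogs (probe set 1422489_at) encodes glucosidase I of the endoplasmic reticulum, which removes the outermost glucose of newly attached N-glycans. Its level was 10.10, 9.99 and 9.73 with vehicle and 9.62, 9.85 and 9.83 with rotenone in the wild type. In the knockout it was 9.96, 10.02 and 9.56 with vehicle and 9.67, 10.00 and 9.35 with rotenone. All groups overlapped, and the lowest array of each knockout group was number 3. Mogs differed by -0.09 for genotype (SE 0.12, interval -0.36 to 0.17, limma adjusted p = 0.891) and by -0.18 for rotenone (SE 0.12, interval -0.44 to 0.09, adjusted p = 0.795).

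Of 10 other measured genes of N-glycan trimming 0 passed for genotype or rotenone in either fit. Ganab and Prkcsh, the subunits of glucosidase II, which acts after MOGS, differed by 0.01 and 0.00 for genotype and by -0.10 and 0.00 for rotenone.

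Wbp1 (probe set 1449441_a_at) encodes a protein that binds WW domains through proline-rich motifs. Its 6 wild-type arrays were close together, at 9.13, 9.12 and 9.15 with vehicle and 9.01, 9.02 and 9.05 with rotenone. Its knockout arrays were more spread, at 9.26, 9.20 and 8.98 with vehicle and 8.93, 9.36 and 8.92 with rotenone. The wild-type groups did not overlap with each other, and the share of all probe sets that separate them in this way was not counted. Within the wild type the rotenone difference was -0.11 (SE 0.12, limma unadjusted p = 0.39) and did not pass. The mean difference with rotenone, -0.09 (SE 0.09, interval -0.28 to 0.09), did not pass either (limma adjusted p = 0.857). That for genotype was 0.03 (interval -0.16 to 0.21, limma adjusted p = 0.957). Its paralogue Wbp1l differed by 0.01 for genotype and 0.03 for rotenone, and neither passed.

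Ino80b (probe set 1418657_at) encodes a subunit of INO80, a complex that uses ATP to move nucleosomes and exchange histones. Its level was 8.22, 8.27 and 8.33 with vehicle and 8.12, 8.41 and 7.90 with rotenone in the wild type. In the knockout it was 8.26, 8.02 and 8.31 with vehicle and 8.08, 8.41 and 8.43 with rotenone. The groups overlapped, and the lowest array was number 3 of wild type with rotenone. Ino80b differed by 0.04 for genotype (SE 0.10, interval -0.17 to 0.26, limma adjusted p = 0.939) and by -0.01 for rotenone (interval -0.22 to 0.21, adjusted p = 0.996).

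Of 11 other measured INO80 subunits 0 passed for genotype or rotenone in either fit. Ino80, the ATPase, differed by -0.07 and 0.06, Ruvbl1, a helicase-like subunit, by -0.16 and -0.03, and Ruvbl2, its partner, by -0.14 and 0.06.

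Rtkn (probe set 1425601_a_at) encodes rhotekin, a scaffold protein of intracellular signalling. Its level was 8.36, 8.29 and 7.94 with vehicle and 8.06, 8.06 and 8.04 with rotenone in the wild type. In the knockout it was 8.21, 8.25 and 7.98 with vehicle and 8.12, 8.13 and 7.87 with rotenone. Groups overlapped, and array 3 was the lowest of each group. Rtkn differed by -0.03 for genotype (SE 0.09, interval -0.22 to 0.16, limma adjusted p = 0.947) and by -0.13 for rotenone (interval -0.32 to 0.07, adjusted p = 0.795).

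**Figure D2:**
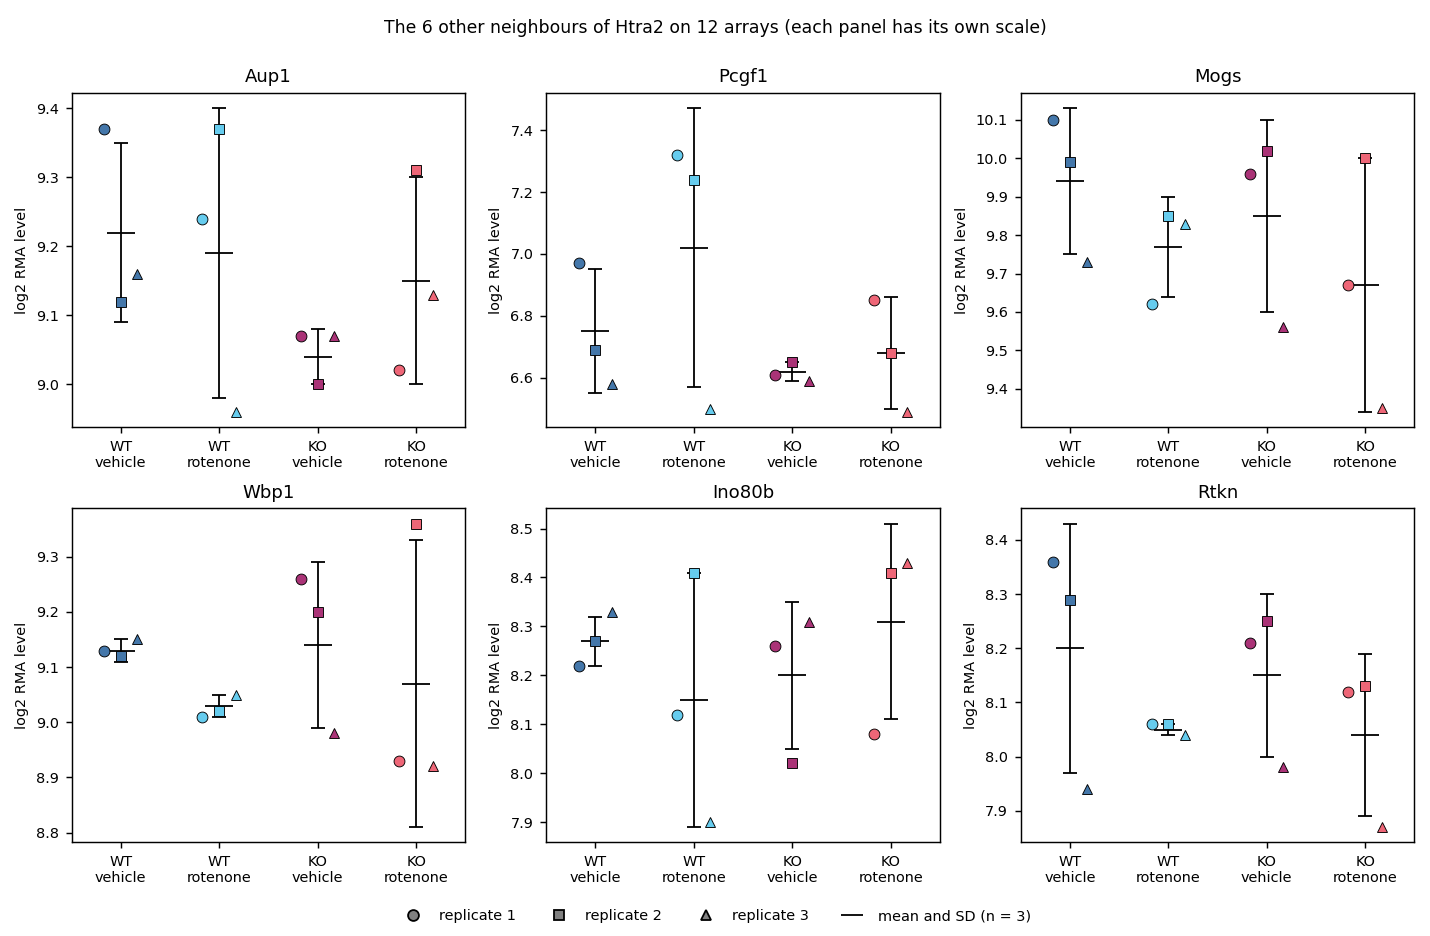
Levels of Aup1, Pcgf1, Mogs, Wbp1, Ino80b and Rtkn on each array (log2, vertical axes) in the 4 groups (horizontal axes), with array numbers marked and bars at the group mean with SD. No member shown here passed for genotype or rotenone. For Rtkn the array numbered 3 is the lowest of every group. In wild type with rotenone it is nearly level with the others, at 8.04 against 8.06 and 8.06.

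Along the chromosome, Loxl3 was the neighbour that passed for genotype and Dok1 the one that passed for rotenone. Of the 8 members 1 fell and 7 did not pass for genotype; 6 of the 8 values were negative and 2 positive, with a median of -0.10 where that of all probe sets was 0.01. For rotenone again 1 fell and 7 did not pass, with a median of -0.11 against 0.02. Whether the difference of Loxl3 departs from those of the other members was not tested.

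Among the 20 measured genes on each side of Htra2, 32 are not members. Of these 0 passed for genotype with or without the block, and their differences ran from -0.24 to 0.27 with a median of 0.05. Dqx1 and Tlx2, which lie between Aup1 and Pcgf1, differed by 0.27 (limma adjusted p = 0.809) and 0.12, Lbx2, next to Pcgf1, by 0.08 and M1ap, beyond Dok1, by 0.05. Dctn1, a dynactin subunit, differed by -0.07.

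For rotenone 0 of the 32 passed without the block. With it 2 rose, where 2.46% of all probe sets were called in either direction. They were Hk2, hexokinase 2 of glycolysis, by 0.55 (limma adjusted p = 0.1 without, 0.00493 with) and Mthfd2, a mitochondrial folate enzyme, by 0.38 (adjusted p = 0.212 without, 0.0039 with).

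**Figure D3:**
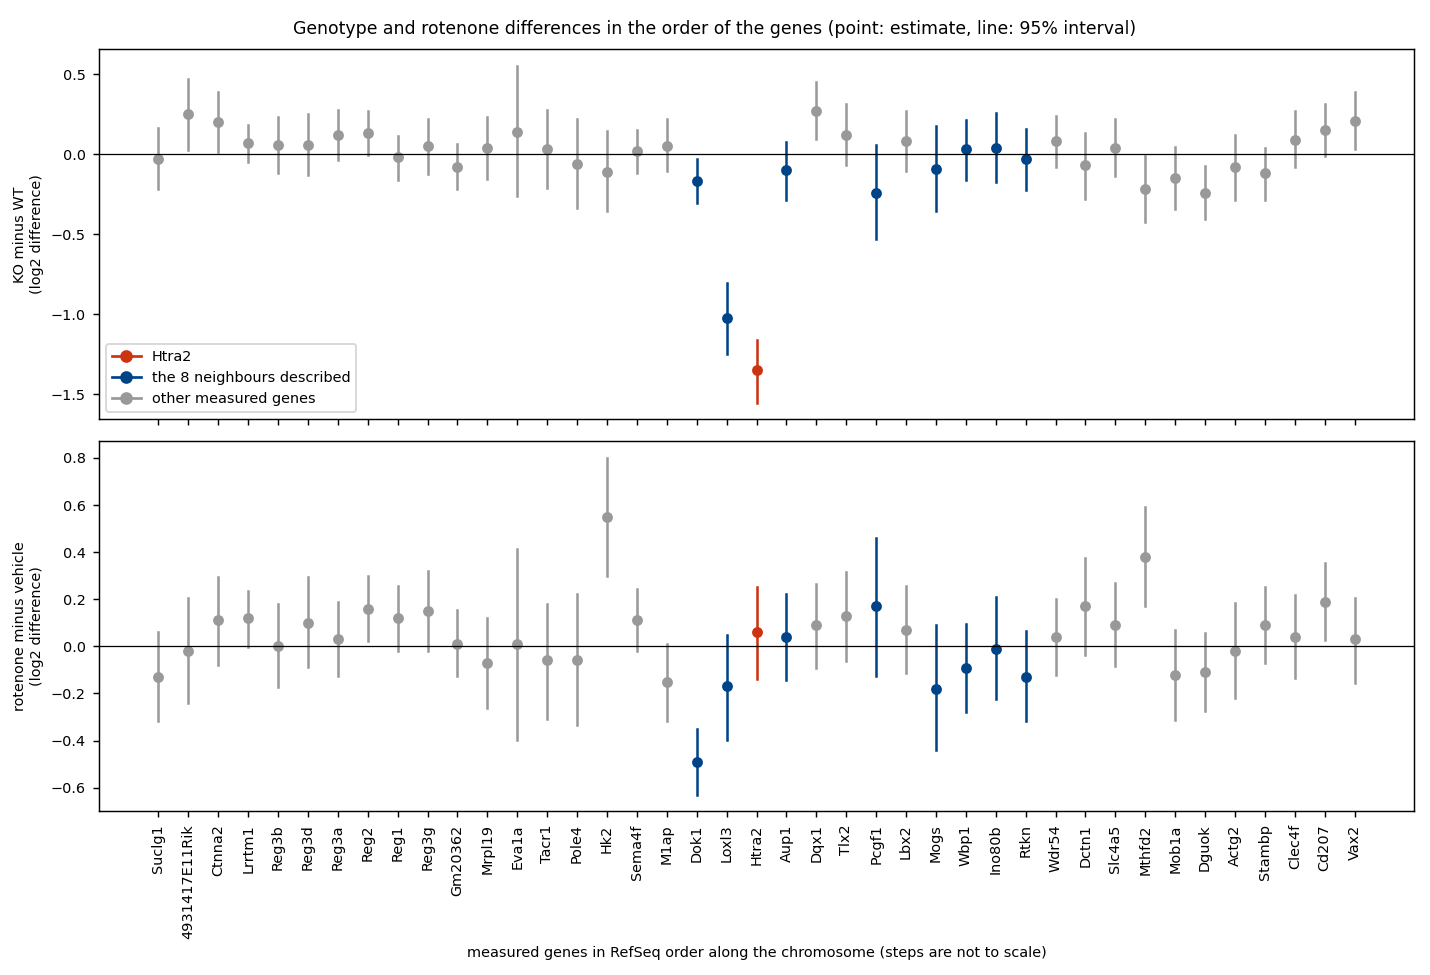
Differences on the log2 scale (vertical axes, with 95% intervals) for genotype and for rotenone, for the 20 measured genes on each side of Htra2 in their order on the chromosome (horizontal axis, steps in gene order, not distance). Loxl3 at -1.02 stands beside Htra2 at -1.35 for genotype, and Dok1 at -0.49 is the member that fell with rotenone.

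The rotenone difference of no member was shown to depend on genotype. The interaction, the rotenone difference in knockout minus that in wild type, was -0.01 for Loxl3 (interval -0.46 to 0.43) and -0.02 for Dok1 (-0.30 to 0.26). It was -0.22 for Pcgf1 (-0.80 to 0.37), 0.24 for Ino80b (-0.19 to 0.67) and 0.13 for Aup1 (-0.23 to 0.50). Its interval was -0.53 to 0.53 for Mogs, -0.35 to 0.42 for Rtkn and -0.34 to 0.41 for Wbp1. With limma 0 of 22626 probe sets were called for it with or without the block, and 82 had an unadjusted p under 0.05 without it.

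Array number 3 differed from numbers 1 and 2 for 3 of the 8 members, all of them lower. Fitted with group and number, Pcgf1 was lower on arrays numbered 3 by 0.34 (SE 0.10, interval -0.54 to -0.13, limma adjusted p = 0.0215). Mogs was lower by 0.29 (SE 0.09, interval -0.48 to -0.09, adjusted p = 0.0379) and Rtkn by 0.23 (SE 0.07, interval -0.38 to -0.08, adjusted p = 0.029). In this comparison 23.9% of all probe sets were called, 11.3% of all in the lower direction, and the 3 of 8 members are to be read against those shares.

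The means of the 4 arrays of each number, for numbers 1, 2 and 3, were 6.94 ± 0.29, 6.81 ± 0.29 and 6.54 ± 0.05 for Pcgf1 (SD, n = 4). They were 9.84 ± 0.23, 9.96 ± 0.08 and 9.62 ± 0.21 for Mogs and 8.19 ± 0.13, 8.18 ± 0.11 and 7.96 ± 0.07 for Rtkn. Pcgf1 lost the call without the wild-type rotenone array 3 (-0.19, limma adjusted p = 0.111). Rtkn kept it in 6 of 12 such refits (limma adjusted p from 0.00665 to 0.166) and Mogs in 4 of 12 (0.00198 to 0.158), each leaving out 1 array. Both lost it without the wild-type vehicle array 1 or 3, the knockout vehicle array 2 or 3, or the knockout rotenone array 1 or 3, and Mogs also without the knockout vehicle array 1 or the knockout rotenone array 2.

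For Loxl3 (0.19, limma adjusted p = 0.14), Dok1 (0.13, adjusted p = 0.14), Aup1 (-0.11, adjusted p = 0.387), Wbp1 (-0.10, adjusted p = 0.385) and Ino80b (0.02, adjusted p = 0.91) the difference of number 3 did not pass. Between numbers 1 and 2, 0 of the 8 members passed with limma, where 0.256% of probe sets did. What the numbers stand for is not given in the labels, and its part in the values was not tested.

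**Figure D4:**
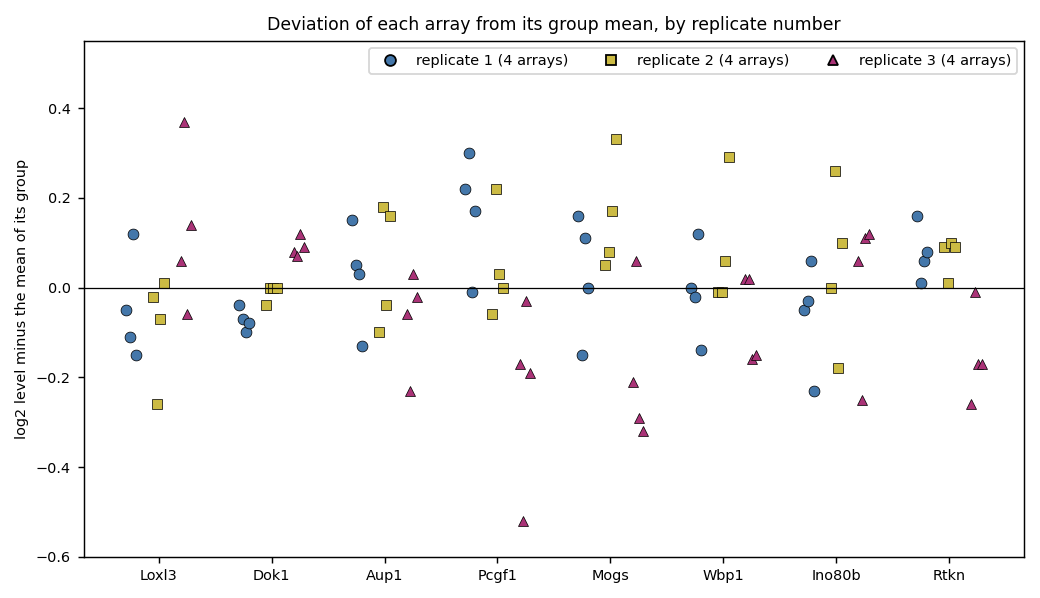
Deviation of each array from its group mean (log2, vertical axis) for the 8 members (horizontal axis), coloured by array number. The points of number 3 are below 0 in every group for Rtkn and Pcgf1 and in 3 of 4 groups for Mogs.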

How the data were processed

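The deposited values are log2 levels of 22690 probe sets on 12 Affymetrix arrays, which the authors computed by RMA, as the submitters' processing notes name it; no version, setting or annotation build was found in the sources. RMA brings array distributions together, so a change shared by most transcripts would not show, and it compresses differences near background. No detection calls were used, so signal over background is unknown; precision is limited by the 3 arrays per group. The values were used as deposited, and 64 array controls were left out.

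The model was limma 3.58.1's lmFit with eBayes (R 4.3.3, two-sided tests, checked on simulated data), with 4 group means over 12 arrays and Benjamini-Hochberg adjustment over 22626 probe sets. Alternatives were a replicate block, leaving out arrays, other normalization, a filter on probe sets below the 40th percentile and other variance settings. The labels number the arrays 1 to 3 in every group. Deviations from the group means correlated in all 18 same-numbered pairs (r from 0.289 to 0.829). In the 36 different-numbered pairs r ran from -0.688 to 0.476, so the ranges overlap. Arrays of the same number are treated as pairs in the block. A gene that is no member was read from its brightest probe set. All member probe sets are named, as are Htra2, set examples of each related gene list, genes of those lists and of the neighbourhood that passed (at most 3 in each direction), and the 3 nearest profiles of Loxl3 and Dok1. The members and lists were chosen with earlier results of these data known. Promoter windows and gene order come from RefSeq (GRCm38.p6). The gene list related to Rtkn is not reported here.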

Additional observations from a re-analysis of the deposited data

How the results depend on the processing

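Of 8 members, 1 was called for genotype averaged over treatments (Loxl3), 1 for rotenone averaged over genotypes (Dok1), 0 in any comparison within a treatment or genotype, 0 for the interaction, and 3 for array number 3. The replicate block raised the count to 1 for genotype in vehicle and in rotenone (Loxl3) and for rotenone in each genotype (Dok1), and changed no other member's call. Leaving out single arrays without the block gave 0 to 1 members for genotype in vehicle, 0 to 1 for mean rotenone and 1 to 3 for number 3. With block and leave-one-out together, chosen after seeing the data, genotype ranged from 0 to 1 in vehicle, 0 to 2 in rotenone and 1 to 2 averaged, and rotenone from 0 to 1 in either genotype. Without all arrays numbered 3, genotype in vehicle and in rotenone gave 1 each. With the block as well, genotype in rotenone and averaged gave 2 (Loxl3 and Pcgf1) and mean rotenone gave 2 (Loxl3 and Dok1). The shares of all probe sets called with the block and arrays left out are not given here. Without all arrays numbered 1 or 2, mean genotype and mean rotenone gave 0, and mean genotype also gave 0 with the block and without number 2 (Loxl3, limma adjusted p = 0.0589). Over the whole table, calls for mean genotype went from 2 to 125 with the block and 416 without number 3, and for mean rotenone from 49 to 557 and 506. Median centring, quantile normalization, a filter on dim probe sets (which removes Pcgf1), limma's trend and robust settings and fits of only the groups compared changed no call of Loxl3 or Dok1; quantile normalization took Pcgf1 out of the calls for number 3 (-0.29, limma adjusted p = 0.0567). No called difference of a member turned direction in these alternatives.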

Other observations

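Partners of the members differed by array number. On arrays numbered 3, Uchl5, a deubiquitinase tied to INO80, was higher by 1.04 (SE 0.09, limma adjusted p = 8.49e-07), Actl6a, an actin-related subunit, by 0.39 (adjusted p = 0.00162) and Ruvbl2 by 0.32 (adjusted p = 0.00622), while Ino80 was lower, at -0.25 (adjusted p = 0.0256). Of the 11 measured INO80 genes besides Ino80b, 4 were higher and 1 lower, where 23.9% of all probe sets were called. Of 8 variant Polycomb genes 3 rose, among them Pcgf2, a paralogue of Pcgf1, at 0.44 (adjusted p = 0.00337), and 1 fell, Pcgf6, another paralogue, at -0.28 (adjusted p = 0.0116). Dok5 fell, at -0.56 (adjusted p = 6.91e-04), as did Derl1 of the degradation machinery around Aup1, at -0.39 (adjusted p = 0.0021). Of 10 leukocyte markers 6 were higher on these arrays, Lyz2, the lysozyme of macrophages, by 2.26 (limma adjusted p = 1.20e-11). Of 6 epithelial markers 2 were higher, the keratins Krt18 by 1.03 (limma adjusted p = 1.44e-04) and Krt8 by 0.73 (adjusted p = 5.20e-04). Of 11 fibroblast markers 2 were higher, Lum by 0.97 (limma adjusted p = 6.56e-04) and Pdgfra by 0.76 (adjusted p = 0.00177). Another 4 were lower, among them Col3a1 at -0.68 (limma adjusted p = 1.45e-05) and Fn1 at -0.40 (adjusted p = 0.00344). Of 5 endothelial and 4 muscle markers 0 passed for number 3. All these marker counts are to be read against the 23.9% of probe sets called in either direction. The differences of these partners and markers stand beside the lower values of Pcgf1, Mogs and Rtkn. Their part in those was not tested.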
